A study of Mus musculus with 8 samples.

Results

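The 10 genes described here make, hold or sense signalling lipids derived from polyunsaturated fatty acids (PUFAs). They were taken by name from the table of 25929 mouse genes, with Ensembl identifiers paired with mouse symbols, and all 10 were found. They are the lipoxygenases Alox5, Alox12 and Alox15, the 5-lipoxygenase activating protein gene Alox5ap, the cyclooxygenases Ptgs1 and Ptgs2, the prostaglandin synthases Ptges and Ptgds, the soluble epoxide hydrolase Ephx2 and the fatty acid receptor Ffar4. RNA-sequencing was performed on hearts of wild-type (WT, strain C57BL/6) mice and of fat-1 transgenic littermates, which carry a C. elegans desaturase that turns n-6 into n-3 PUFAs. The mice had a sham operation (chest opened, aorta not narrowed; groups WT-Sham and Fat1-Sham) or transverse aortic constriction (TAC; groups WT-TAC and Fat1-TAC) at 3 months of age, and TAC lasted 8 weeks. Each of the 4 groups had 2 independent samples, so that 8 libraries were compared, and each is named by its group and replicate number. The promoter of the transgene is not given in the sources used here, and the mRNA of the transgene was not analysed here.

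Arachidonic acid, an n-6 PUFA, and the n-3 PUFAs eicosapentaenoic and docosahexaenoic acid are released from membranes by phospholipases and compete for the same enzymes. Lipoxygenases turn them into hydroxy fatty acids, leukotrienes and resolving mediators, and cyclooxygenases turn them into prostaglandin H, which terminal synthases convert into prostaglandin E or D. Cytochrome P450 enzymes form epoxy fatty acids, which soluble epoxide hydrolase opens to diols. In the heart these enzymes lie partly in cardiomyocytes and vessels and partly in leukocytes, platelets and fat cells. The comparisons asked how pressure overload and the fat-1 genotype go together with the mRNA of these enzymes.

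The recovered depth was 14163994 to 21218331 fragments per library. WT-TAC1 stood apart, with r = 0.898 to WT-TAC2 across genes (0.981 to 0.985 within the other 3 groups). The 8 cardiomyocyte markers, Myh6 and Myl2 among them, were present in all libraries. Their summed level was 21859 FPKM (fragments scaled to gene length and to the depth of the library) in WT-TAC1 and 39810.5 to 49272 in the other 7 libraries. Markers of T cells and thymocytes summed to 891 FPKM in WT-TAC1 and at most 0.537 elsewhere. The labels name ventricular tissue and the methods whole hearts. The 5 atrial myocyte markers summed to 1031 to 3801 FPKM in the WT libraries and Fat1-Sham1, and to 25.8 to 52.8 in Fat1-Sham2 and both Fat1-TAC libraries. In whole-tissue RNA, fewer cells of a type and less RNA per cell cannot be told apart.

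The 10 genes lay at very different levels. Over the 8 libraries the mean was 312 FPKM for Ptgds and 86.9 for Ephx2, and these 2 genes made up 76.7% to 96.1% of the summed FPKM of the 10. Alox5 (9.28 FPKM) and Ptgs1 (9.11) followed. Alox5ap (3.21), Ptges (3.10), Alox12 (2.35), Alox15 (2.13), Ptgs2 (1.34) and Ffar4 (0.441) were low. Because FPKM is per length, these levels can be set beside each other. Between the highest and the lowest library, Alox15 differed 32.4-fold and Ptgs2 10.6-fold, whereas Alox5 differed 1.86-fold and Alox12 2.18-fold. All 10 passed the filter of 1 FPKM in at least 2 libraries, but Ffar4 passed only through the 2 WT-TAC libraries.

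**Figure D1:**
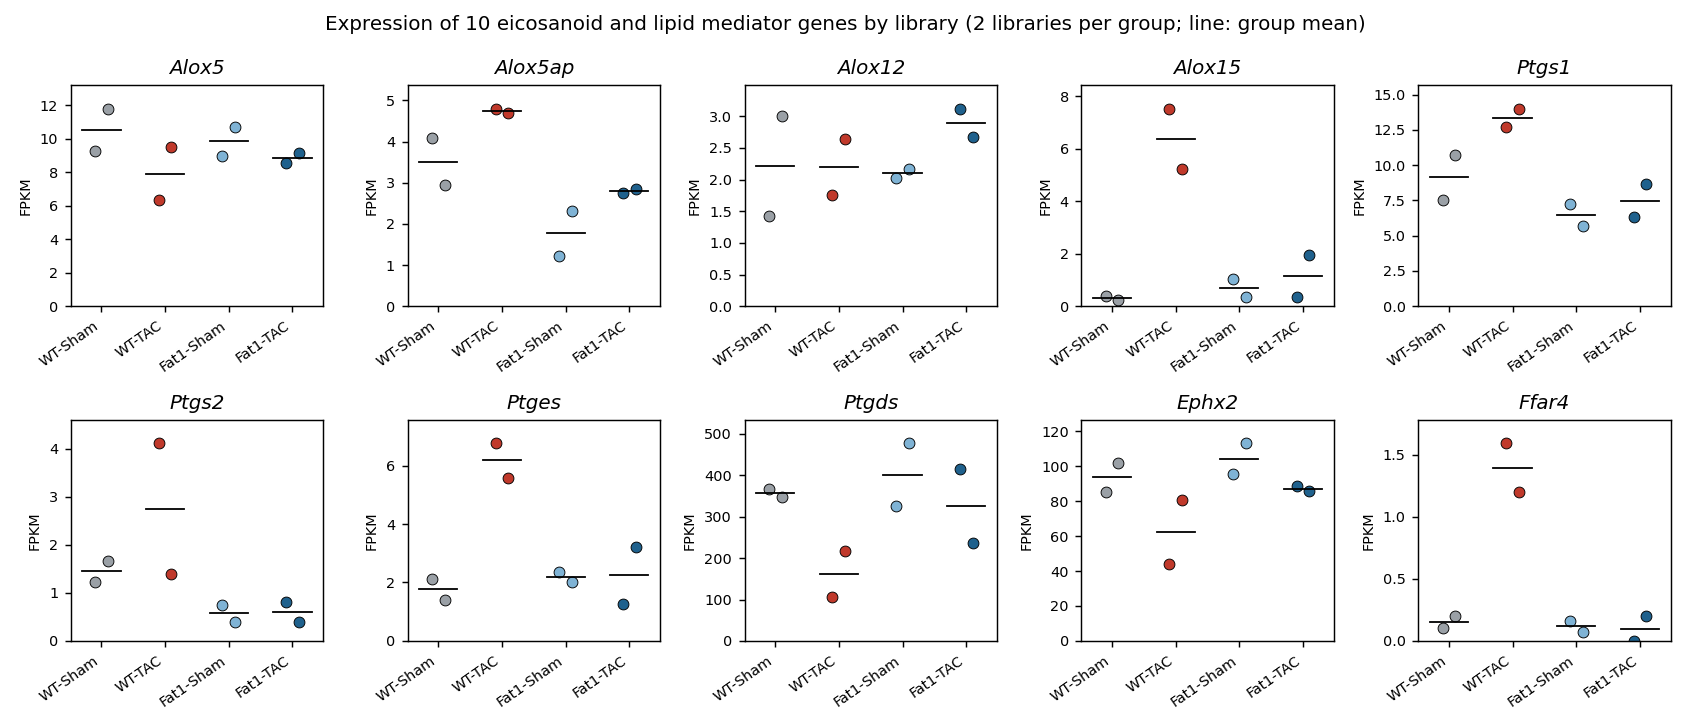
FPKM (vertical axis, from 0, a scale of its own in each panel) of the 10 genes in the 8 libraries by group, with points for libraries and lines for group means. Alox15, Ptges and Ffar4 were highest in the 2 WT-TAC libraries, and Ptgds and Ephx2 were lowest there.

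In the lipoxygenase arm, Alox15 was the gene that changed. Alox15, on chromosome 11 (chr11:70344152-70352031, minus strand, GRCm38), encodes 12/15-lipoxygenase. Its level was 0.397 and 0.232 FPKM in WT-Sham, 7.52 and 5.21 in WT-TAC, 1.03 and 0.360 in Fat1-Sham, and 0.339 and 1.94 in Fat1-TAC. Both WT-TAC libraries were above the other 6, and Fat1-TAC2 was the next highest. These levels rest on 8, 7, 212, 133, 26, 10, 9 and 50 fragments, in the same order of libraries. Alox15 rose in WT-TAC over WT-Sham, with a log2 fold change of 2.47 on the log2(FPKM + 1) scale (standard error, SE, 0.41; limma adjusted p = 0.0764). Per depth, WT-TAC held 21.5 times as many Alox15 fragments as WT-Sham (345 against 15, exact 95% interval 12.9 to 38.9, which covers counting error only). Against WT-TAC, Alox15 in Fat1-TAC was 5.59-fold lower by group means, but the log2 fold change of -1.87 (SE 0.41, limma adjusted p = 0.120) did not pass. The 2 Fat1-TAC libraries differed from each other more than the 2 of any other group in ratio, and the log2 fold change was -2.44 without Fat1-TAC2 (limma adjusted p = 0.0867) and -1.31 without Fat1-TAC1 (0.470).

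Alox5, the 5-lipoxygenase that starts leukotriene synthesis, was the most abundant lipoxygenase in 7 of the 8 libraries. It was at 9.27 and 11.8 FPKM in WT-Sham, 6.34 and 9.49 in WT-TAC, 8.98 and 10.7 in Fat1-Sham, and 8.58 and 9.14 in Fat1-TAC, and the groups overlapped in all 4 comparisons of groups. The log2 fold change in WT-TAC over WT-Sham was -0.38 (95% confidence interval -0.94 to 0.18, limma adjusted p = 0.273). It was -0.80 with median-of-ratios scaling, -0.97 with quantile normalization and -0.98 with limma-voom (adjusted p 0.253 to 0.301), and without WT-TAC2 it was called at -0.64 (limma adjusted p = 0.0300). Alox12, the platelet-type 12-lipoxygenase gene near Alox15 on chromosome 11, was at 1.43 and 3.01 FPKM in WT-Sham and 1.75 and 2.64 in WT-TAC. It was at 2.03 and 2.17 in Fat1-Sham and 3.12 and 2.67 in Fat1-TAC. Its WT libraries spanned nearly the whole range, and the interval of its WT-TAC difference ran from -0.69 to 0.72 (log2). The platelet markers, with Pf4 as the most abundant, summed to 34.6 to 81.7 FPKM and were highest in WT-Sham2, the library with the highest Alox12 of the WT groups. They summed to 41.5 in Fat1-TAC1, which had the highest Alox12 of all libraries, and to 34.6, the lowest sum, in Fat1-TAC2. The part of platelets in the Alox12 levels was not tested.

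Alox5ap encodes the membrane protein that hands arachidonic acid to 5-lipoxygenase. Its level was 4.08 and 2.94 FPKM in WT-Sham, 4.80 and 4.69 in WT-TAC, 1.23 and 2.31 in Fat1-Sham, and 2.76 and 2.84 in Fat1-TAC. All 4 WT libraries were above all 4 fat-1 libraries, although WT-Sham2 was close to both Fat1-TAC libraries. The share of all genes with this order was not counted, so nothing particular is read from it. Of the 10 genes Alox5ap was the one with an unadjusted limma p under 0.05 and a 1.5-fold difference between the sham groups. Its log2 fold change in Fat1-Sham over WT-Sham was -0.72 (SE 0.26, limma adjusted p = 1) and did not pass. Between the TAC groups it was -0.60 in Fat1-TAC (95% confidence interval -1.22 to 0.03, limma adjusted p = 0.174).

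Ratios within a library do not depend on how the library is scaled. The ratio of Alox15 to Alox5 reached 1.19 in WT-TAC1, was 0.549 in WT-TAC2 and lay at 0.0197 to 0.212 in the other 6 libraries. Of the summed FPKM of Alox5, Alox12 and Alox15, Alox15 held 48.2% in WT-TAC1, 30.1% in WT-TAC2 and 14.1% in Fat1-TAC2, and 1.55% to 8.55% in the remaining 5. The ratio of Alox12 to Alox5 stayed between 0.155 and 0.364.

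**Figure D2:**
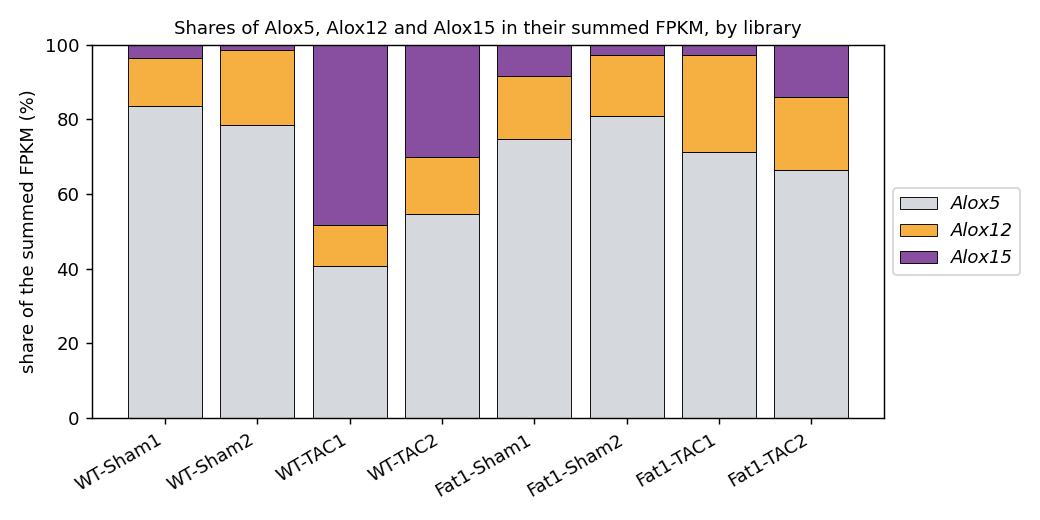
Stacked bars of the share (%) of Alox5, Alox12 and Alox15 in the summed FPKM of the 3 lipoxygenases, for each of the 8 libraries. The Alox15 share was 48.2% and 30.1% in WT-TAC and at most 14.1% in the others, and Alox5 held 40.6% to 83.5%.

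In the cyclooxygenase arm, the 2 enzymes and the 2 synthases did not move as a block. Ptgs1, the constitutive cyclooxygenase-1 gene, was at 7.54 and 10.7 FPKM in WT-Sham, 12.7 and 14 in WT-TAC, 7.27 and 5.70 in Fat1-Sham, and 6.32 and 8.66 in Fat1-TAC. Both WT-TAC libraries were the highest. The log2 fold change was 0.52 in WT-TAC over WT-Sham (limma adjusted p = 0.195) and -0.77 in Fat1-TAC over WT-TAC (SE 0.25, limma adjusted p = 0.163), and neither passed. Ptgs2, the inducible cyclooxygenase-2 gene, was at 1.23 and 1.66 FPKM in WT-Sham, 4.11 and 1.39 in WT-TAC, 0.748 and 0.404 in Fat1-Sham, and 0.801 and 0.389 in Fat1-TAC. All 4 WT libraries were above all 4 fat-1 libraries, an order whose share among all genes was not counted. The high WT-TAC mean of Ptgs2 came from WT-TAC1 alone. Its log2 fold change in WT-TAC over WT-Sham was 0.52 with all libraries (limma adjusted p = 0.344) and -0.03 without WT-TAC1. In Fat1-TAC over WT-TAC it was -1.14 (SE 0.38, limma adjusted p = 0.163), and -0.59 without WT-TAC1. The ratio of Ptgs1 to Ptgs2 was 3.10 to 10.1 in the WT libraries and 7.89 to 22.2 in the fat-1 libraries, so the genotypes overlapped in this ratio.

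Ptges, which encodes the inducible microsomal prostaglandin E synthase-1, was at 2.12 and 1.41 FPKM in WT-Sham, 6.76 and 5.59 in WT-TAC, 2.36 and 2.03 in Fat1-Sham, and 1.28 and 3.22 in Fat1-TAC. Both WT-TAC libraries were above the other 6. The group mean in WT-TAC was 3.50-fold that in WT-Sham, and the log2 fold change of 1.38 (SE 0.33, limma adjusted p = 0.163) did not pass, nor did that of -1.20 in Fat1-TAC over WT-TAC (SE 0.33, limma adjusted p = 0.150). Ptgds encodes lipocalin-type prostaglandin D synthase, and its level was 368 and 348 FPKM in WT-Sham, 106 and 218 in WT-TAC, 326 and 477 in Fat1-Sham, and 415 and 236 in Fat1-TAC. Both WT-TAC libraries were the lowest, although WT-TAC2 was close to Fat1-TAC2. The log2 fold change of Ptgds was -1.23 in WT-TAC over WT-Sham (SE 0.40, limma adjusted p = 0.175) and 1.04 in Fat1-TAC over WT-TAC (SE 0.40, limma adjusted p = 0.165), and neither passed. Only 0.2% of the genes tested had a lower log2 fold change than Ptgds in WT-TAC over WT-Sham. Abundant genes reach such a rank more easily, because the log2(FPKM + 1) scale understates changes of low genes. The log2 fold change of Ptgds there was -0.72 without WT-TAC1. The ratio of Ptges to Ptgds reached 0.0639 in WT-TAC1, was 0.0257 in WT-TAC2 and lay at 0.00309 to 0.0137 in the other 6 libraries.

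The promoters of the inducible pair Ptgs2 and Ptges, of Ptgds, which was lowest in both WT-TAC libraries, and of Ffar4 are shown because these are the genes with an entry whose log2 fold change between the TAC groups exceeded 1 in size. They are the RefSeq windows on GRCm38.p6 from 250 bases before to 50 after the start used there, and 7 of the 10 genes had one. The windows of Ptges and Ptgds lie inside the genes as positioned by GENCODE, which begin at 30929863 and 25470046 on the minus strand. Capitals mark GC boxes (GGGCGG), an E-box (CACGTG), an AP-1 site (TGANTCA), a C/EBP site (TTGCNNAA) and a cyclic AMP response core (TGACG), each searched on both strands. The TATA box (TATAAA) was also searched and was not found in these windows.
Ptgs2 (chr1:150099781-150100080, + strand): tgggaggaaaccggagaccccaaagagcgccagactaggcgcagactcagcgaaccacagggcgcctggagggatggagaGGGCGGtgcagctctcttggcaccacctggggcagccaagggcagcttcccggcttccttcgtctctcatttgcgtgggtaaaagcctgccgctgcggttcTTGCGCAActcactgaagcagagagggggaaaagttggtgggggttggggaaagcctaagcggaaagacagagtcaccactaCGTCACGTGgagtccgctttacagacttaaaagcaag
Ptges (chr2:30903248-30903547, - strand): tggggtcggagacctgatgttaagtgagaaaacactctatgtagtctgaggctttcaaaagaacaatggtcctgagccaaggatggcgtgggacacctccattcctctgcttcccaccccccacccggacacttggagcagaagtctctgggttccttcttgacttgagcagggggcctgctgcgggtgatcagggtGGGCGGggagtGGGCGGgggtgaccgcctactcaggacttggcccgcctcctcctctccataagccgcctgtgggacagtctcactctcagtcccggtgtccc
Ptgds (chr2:25469700-25469999, - strand): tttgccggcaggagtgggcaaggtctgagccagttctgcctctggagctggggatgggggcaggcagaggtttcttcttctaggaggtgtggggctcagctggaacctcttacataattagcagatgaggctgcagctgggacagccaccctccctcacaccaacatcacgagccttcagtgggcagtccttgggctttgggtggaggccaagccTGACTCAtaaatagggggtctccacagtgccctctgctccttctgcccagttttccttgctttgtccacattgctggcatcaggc
Ffar4 (chr19:38096829-38097128, + strand): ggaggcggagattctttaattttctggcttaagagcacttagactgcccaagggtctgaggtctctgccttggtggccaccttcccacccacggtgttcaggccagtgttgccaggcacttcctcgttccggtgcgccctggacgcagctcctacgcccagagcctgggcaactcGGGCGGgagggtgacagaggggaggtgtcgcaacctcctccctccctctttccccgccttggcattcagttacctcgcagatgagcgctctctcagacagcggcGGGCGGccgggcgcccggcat
Ptgs2 held 1 GC box, 1 C/EBP site and, in overlap with each other, a cyclic AMP response core and an E-box. Ptges and Ffar4 held 2 GC boxes each, and Ptgds held 1 AP-1 site. Of 32851 promoters of this length, 35.7% held a GC box, 7.15% the E-box, 7.81% the AP-1 site, 10.8% the C/EBP site, 20.8% the cyclic AMP response core and 13.6% the TATA box. Of the other 3 promoters, Alox12 held 3 GC boxes, Alox5 held 1, and Ptgs1 held none of the motifs searched.

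Ephx2, soluble epoxide hydrolase, was at 85.4 and 102 FPKM in WT-Sham, 44.1 and 80.7 in WT-TAC, 95.7 and 113 in Fat1-Sham, and 88.4 and 85.8 in Fat1-TAC. WT-TAC1 was far below the rest, and WT-TAC2 lay just below the next library. The log2 fold change in WT-TAC over WT-Sham was -0.64 (95% confidence interval -1.28 to 0.01, limma adjusted p = 0.181) with all libraries and -0.21 without WT-TAC1. Between the TAC groups it was 0.54 in Fat1-TAC over WT-TAC (limma adjusted p = 0.200), and 0.11 without WT-TAC1. Ephx2 and Ptgds were both lowest in the library with the lowest cardiomyocyte markers, and the part of those markers in the result was not tested.

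Ffar4, also called GPR120, is a receptor for long-chain fatty acids, n-3 PUFAs among them, and was the scarcest of the 10 mRNAs. It lies on chromosome 19 (chr19:38097071-38114263, plus strand, GRCm38). Its level was 0.101 and 0.203 FPKM in WT-Sham, 1.59 and 1.20 in WT-TAC, 0.161 and 0.0734 in Fat1-Sham, and 0 and 0.198 in Fat1-TAC. Both WT-TAC libraries were above the other 6. The levels rest on 2 and 6 fragments in WT-Sham, 44 and 30 in WT-TAC, 4 and 2 in Fat1-Sham, and 0 and 5 in Fat1-TAC. In Fat1-TAC1 the count of 0 allows up to 0.115 FPKM (3 fragments). Over the filtered genes its log2 fold change in Fat1-TAC over WT-TAC was -1.13 (SE 0.22, limma adjusted p = 0.0997, just inside the threshold of 0.1). Because Ffar4 passed the filter only through the group where it is high, it had to differ there, and this call is given as a description. Without any filter, over all 25929 genes, Ffar4 fell by the same test (limma adjusted p = 0.0331). Per depth, WT-TAC held 14.4 times as many Ffar4 fragments as Fat1-TAC (74 against 5, exact 95% interval 5.91 to 45.7, counting error only). In WT-TAC over WT-Sham the log2 fold change of 1.05 (SE 0.22, limma adjusted p = 0.130) did not pass over the filtered genes and passed without a filter (limma adjusted p = 0.0395), while WT-TAC held 8.66 times as many fragments per depth (74 against 8, exact 95% interval 4.17 to 20.8). Between the other 3 groups, with 8, 6 and 5 fragments in all, no difference was detectable at this depth.

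A gene counted as called where its limma p, adjusted by the method of Benjamini and Hochberg, lay under 0.1 and its fold change exceeded 1.5 in either direction. In WT-TAC over WT-Sham, 1 of the 10 genes (Alox15) was called up, where 0.921% of the 14442 genes tested were, and 0 were called down, where 0.0138% were. At an unadjusted limma p under 0.05 with the same fold change, 3 of the 10 were higher (Alox15, Ptges and Ffar4), where 22.7% of all genes were, and 1 was lower (Ptgds), where 1.11% were. Both libraries of WT-TAC were above both of WT-Sham for 5 of the 10 (52.5% of all genes) and below for 2 (7.09%). Ffar4, which passed the filter only through WT-TAC, is in both of these counts of higher genes. The median of the 10 log2 fold changes was 0.44 and that of all genes 0.39, so the median of the 10 lay near that of all genes. Median-of-ratios scaling took the shift of all genes to -0.01 and quantile normalization to -0.10. Alox15 (2.12 and 1.90 in the same order), Ptges (at 0.77 with quantile normalization), Ffar4, Ptgds, Ephx2 and Alox5 had the same direction under both and with limma-voom, whereas Alox5ap, Alox12, Ptgs1 and Ptgs2 turned below 0 under at least 1 of the 3.

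In Fat1-TAC over WT-TAC, 1 of the 10 was called down (1.39% of all genes) and 0 up (0.0346%), and the 1 was Ffar4, which had entered the test only through WT-TAC. At an unadjusted limma p under 0.05 and 1.5-fold, 5 were lower (Alox15, Ptgs1, Ptgs2, Ptges and Ffar4; 23.5% of all genes) and 1 was higher (Ptgds; 1.72%). Both Fat1-TAC libraries were below both WT-TAC libraries for 6 of the 10 (57.1% of all genes) and above for 3 (9.33%). The median log2 fold change was -0.68 for the 10 and -0.40 for all genes. Alox5ap was the gene whose direction turned under another scaling, from -0.60 to 0.01 with quantile normalization. This comparison and the previous one share the WT-TAC libraries. Set against all other libraries at once, both WT-TAC libraries were the highest for Alox5ap, Alox15, Ptgs1, Ptges and Ffar4, 5 of 10 against 40.3% of all genes, and the lowest for Ptgds and Ephx2, 2 of 10 against 3.80%. Ffar4 had to be among the former, because it passed the filter only through these 2 libraries. WT-TAC1 alone was the highest library for 5 of the 10 (58.1% of all genes) and the lowest for 3, Alox5, Ptgds and Ephx2 (15.7%).

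In fat-1 hearts, TAC went with no call among the 10. In Fat1-TAC over Fat1-Sham limma called 0 up (0.00692% of all genes) and 0 down (0%), limma-voom called 0, and 0 passed at an unadjusted p under 0.05 with 1.5-fold (1.33% of all genes were higher and 0.533% lower). The log2 fold changes ran from -0.33 for Ptgds to 0.48 for Alox5ap, with a median of -0.01 (0.02 for all genes). Both Fat1-TAC libraries were above both Fat1-Sham libraries for 2 genes, Alox5ap and Alox12 (26.8% of all genes), and below for 1, Ephx2 (21.5%). The widest intervals were those of Alox15 (-0.71 to 1.23) and Ptgds (-1.27 to 0.61). Apart from Ffar4 (-0.55 to 0.50, on a scale that understates changes of low genes), each of the 10 had an interval that leaves room for differences over 1.5-fold. Between the sham groups, limma called 0 up (0%) and 0 down (0%), limma-voom called 0, and 1 gene, Alox5ap, was lower at the unadjusted threshold (0.692% of all genes) and 0 were higher (0.201%). Both Fat1-Sham libraries were below both WT-Sham libraries for 3 genes, Alox5ap, Ptgs1 and Ptgs2 (16.5% of all genes), and above for 0 (15.5%). The median was -0.03 (-0.01 for all genes). In the interaction of genotype and surgery, limma called 0 of the 10 up (0.00692% of all genes) and 0 down (0.0623%), and limma-voom called 0. At an unadjusted p under 0.05 and 1.5-fold, 3 were lower (6.38% of all genes) and 0 higher (0.609%), and the 3 were Alox15 (-2.22, SE 0.58), Ptges (-1.42, SE 0.47) and Ffar4 (-1.08, SE 0.32), each with a limma adjusted p of 0.495. Ffar4 had entered this test, too, only through WT-TAC. None of the 10 passed the test for a different response of the genotypes to TAC.

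**Figure D3:**
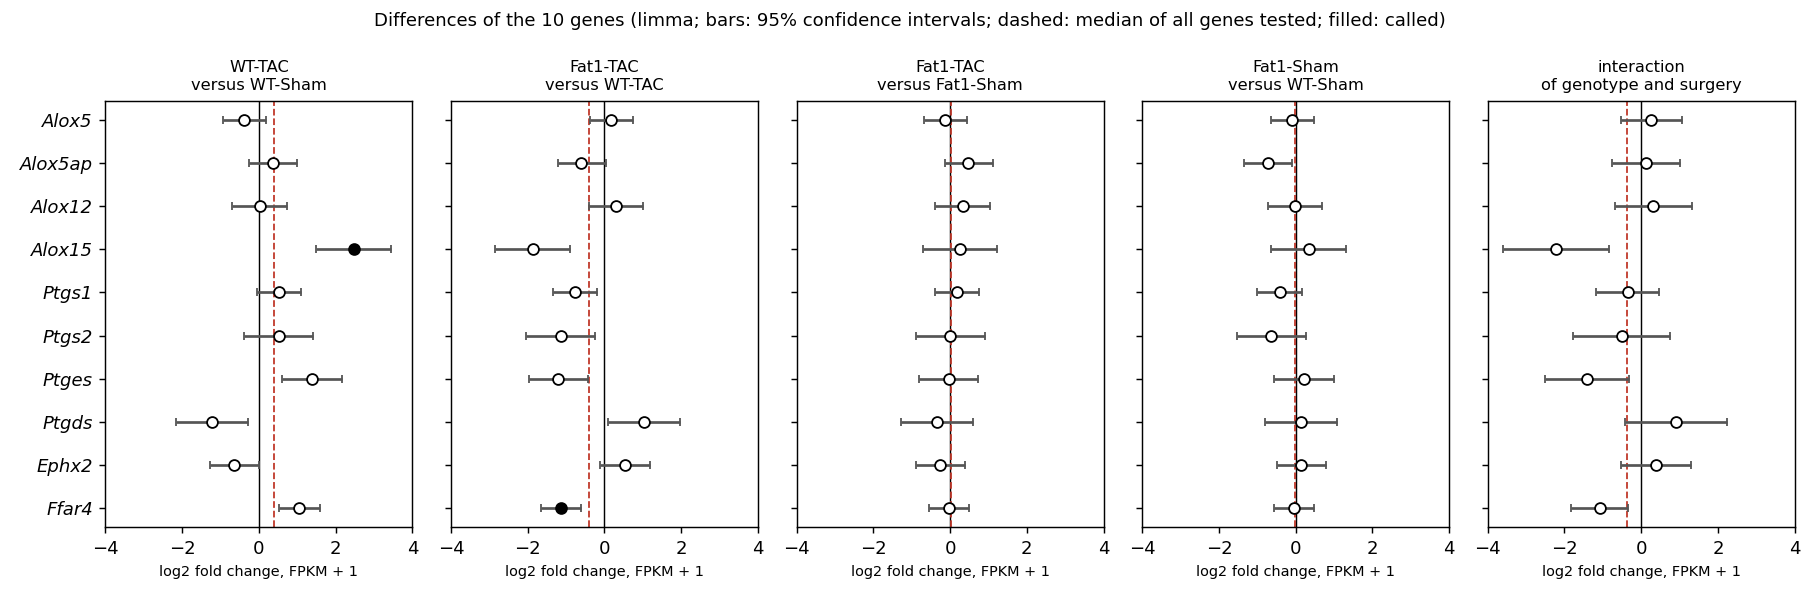
Log2 fold changes on the log2(FPKM + 1) scale (horizontal axis) of the 10 genes in 4 comparisons and the interaction, with 95% confidence intervals as bars and the median of all genes tested as a dashed line. Filled points mark the 2 calls, Alox15 in WT-TAC over WT-Sham (2.47) and Ffar4, which passed the filter only through WT-TAC, in Fat1-TAC over WT-TAC (-1.13).

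The libraries with high Alox15, Ptges and Ffar4 also carried mRNAs of other cell types. Of the 7 epithelium markers, 6 exceeded the other 6 libraries in each WT-TAC library, as 40.3% of all genes did. Their sums were 3.97 and 4.91 FPKM in WT-Sham, 987 and 1606 in WT-TAC, 67.0 and 2.88 in Fat1-Sham, and 2.35 and 2.15 in Fat1-TAC. The airway gene Scgb1a1 was the most abundant, with 707 and 1555 FPKM in WT-TAC, and the lung gene Sftpc reached 74.7 in WT-TAC1 and 29.9 in Fat1-Sham1, where Alox15 was at 1.03. All 6 adipocyte markers, Adipoq and Cfd among them, exceeded the others in each WT-TAC library (summed 612 and 792 FPKM), and their sum was lowest in Fat1-TAC1 (6.23), the library without an Ffar4 fragment. All 5 markers of B and plasma cells were higher in both WT-TAC libraries, with sums of 83.3 and 41.6, and of 34.4 in Fat1-TAC2 against 2.08 to 3.88 in the other 5. Fat1-TAC2 was also the third highest library for Alox15 and Ptges. The part of these cell types in the results on Alox15, Ptges and Ffar4 was not tested.

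Markers of leukocytes that commonly carry Alox5, Alox5ap and Alox15 were in part higher in WT-TAC as well. Of the 7 macrophage and monocyte markers, 5 were higher in both WT-TAC libraries (40.3% of all genes were, a share to set beside each of these counts), and the sums were 436 and 332 FPKM in WT-TAC and 178 to 253 elsewhere. Mast cell markers (4 of 5 higher) summed to 43.4 and 31.4 in WT-TAC and 7.27 to 16.6 elsewhere. Of the 4 measured eosinophil markers, 0 were higher in both WT-TAC libraries, their sums were 3.13 and 0.532 FPKM in WT-TAC, 0.674 in Fat1-TAC2 and 0.0144 to 0.0802 elsewhere, and the defining genes Siglecf and Epx were at 0 in WT-TAC2 and Fat1-TAC2 and at 0.128 and 0.0603 in WT-TAC1. Prg2, a granule protein gene of eosinophils, was at 2.71 FPKM in WT-TAC1, 0.532 in WT-TAC2 and 0.658 in Fat1-TAC2, and at most 0.0639 elsewhere. Neutrophil markers summed to 3.36 to 36.8 FPKM, and the sum was highest in WT-Sham2, as S100a8, S100a9, Retnlg and Mmp8 each were. Ly6g (0.710 FPKM, and 0 in 6 libraries), Camp (0.532) and Ngp (1.24) were highest in WT-TAC1. Ptgs2 was highest in WT-TAC1, the library with T cell and thymocyte markers at 891 FPKM. Atrial markers were at 2456 FPKM in both WT-TAC libraries and at most 52.8 in Fat1-TAC, so they moved with every difference between these 2 groups. Mesothelium markers (4 of 5 higher in both WT-TAC libraries) summed to 72.7 and 88.3 in WT-TAC and 21.2 to 49.2 elsewhere. The sums were 481 to 874 for fibroblast, 211 to 327 for endothelium and 4239.6 to 10580.5 for red cell markers, with 1, 0 and 1 of 5 higher in both WT-TAC libraries. Of the 5 smooth muscle markers, 3 were higher there, although the sum (622 to 1218) was carried by Des, which cardiomyocytes also express and which was lowest in WT-TAC1 (425). Cnn1 was at 30.3 and 45.7 in WT-TAC and 1.82 to 25.0 elsewhere, and Myh11 at 30.3 and 41.9 against 9.07 to 29.9. The part of each of these lists in the results was not tested.

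**Figure D4:**
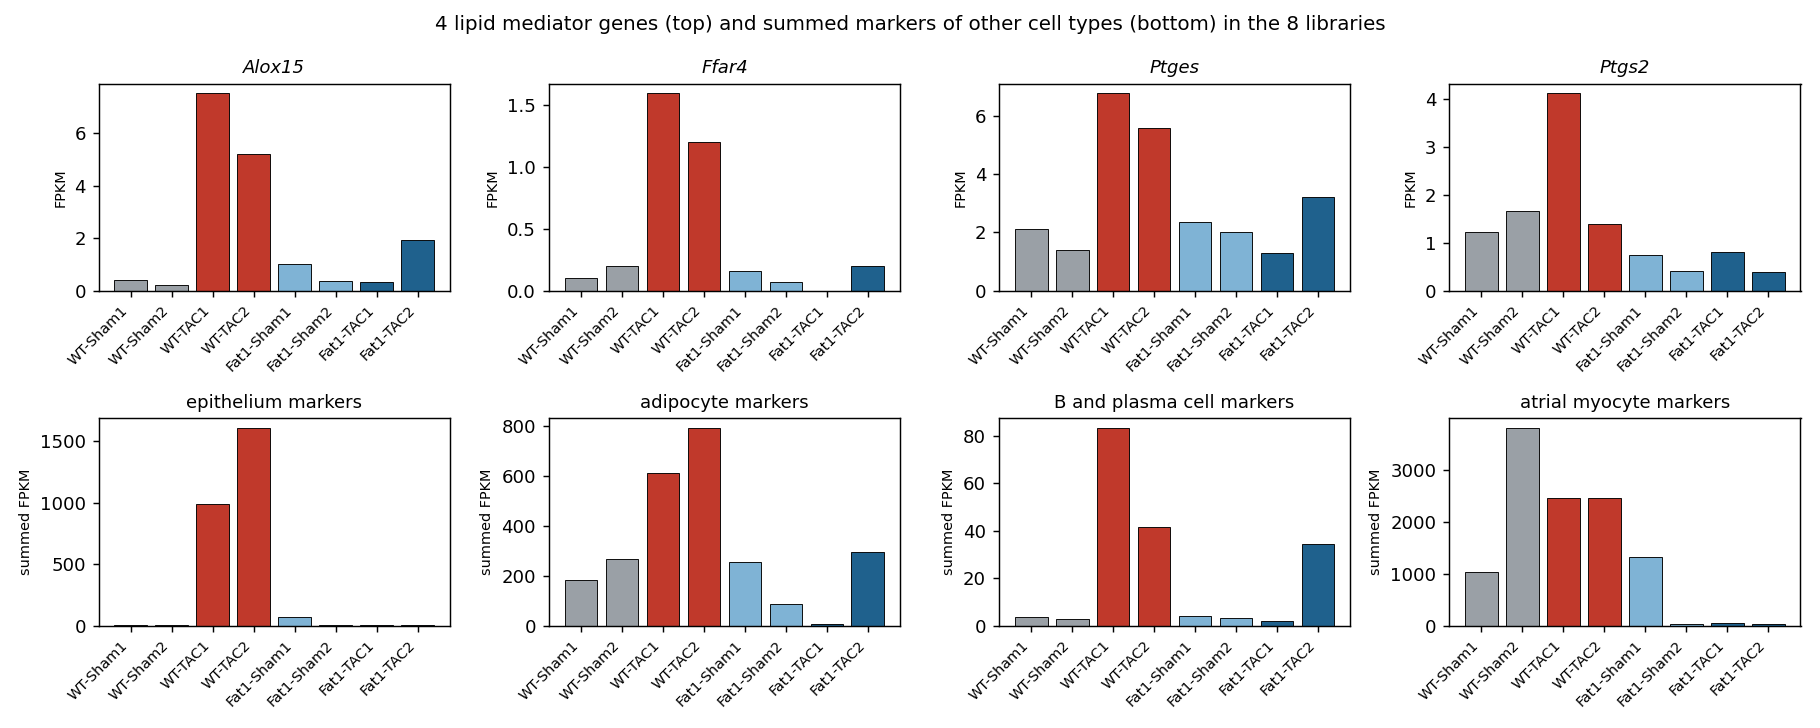
FPKM of Alox15, Ffar4, Ptges and Ptgs2 (top) and summed FPKM of epithelium, adipocyte, B and plasma cell and atrial myocyte markers (bottom) in the 8 libraries, as bars from 0 coloured by group. The WT-TAC libraries were highest for the epithelium (987 and 1606) and adipocyte (612 and 792) sums as well as for Alox15, Ffar4 and Ptges.

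A total of 80 other genes of the pathway were measured, and 56 passed the filter. In WT-TAC over WT-Sham limma called 0 of them, at an unadjusted p under 0.05 and 1.5-fold 11 were higher (22.7% of all genes) and 0 lower (1.11%), and limma-voom called 0. The 11 of 56 are a smaller share than that of all genes. Of the same genes, limma called 1 down and 0 up in Fat1-TAC over WT-TAC, and 19 were lower (23.5% of all genes) and 1 higher (1.72%) at the unadjusted threshold. In Fat1-TAC over Fat1-Sham, in the sham comparison and in the interaction, limma and limma-voom called 0, and 1 higher (1.33% of all genes), 1 lower (0.692%) and 3 lower (6.38%) passed the unadjusted threshold. The gene called down was Hcar2, a receptor for niacin and ketone bodies, with 0.476 and 0.440 FPKM in WT-Sham, 1.52 and 1.67 in WT-TAC, 0.466 and 0.0530 in Fat1-Sham, and 0.0277 and 0.171 in Fat1-TAC. Both WT-TAC libraries were the highest. Hcar2, too, passed the filter only through WT-TAC, so its log2 fold change in Fat1-TAC over WT-TAC of -1.24 (SE 0.24, limma adjusted p = 0.0995) is given as a description. Without any filter the limma adjusted p was 0.0543. This level rests on 1 and 6 fragments in Fat1-TAC, and the log2 fold change without WT-TAC1 was -1.28 (limma adjusted p = 0.145).

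Each list's counts at the unadjusted threshold stand beside 22.7% of all genes higher in WT-TAC and 23.5% lower in Fat1-TAC, and with so few genes a list nothing particular is read from them. In the phospholipase and lipase list, 3 of 13 tested genes were past the unadjusted threshold upwards in WT-TAC over WT-Sham, and 6 were past it downwards in Fat1-TAC over WT-TAC. Its most abundant member, Mgll, which splits monoacylglycerols, was at 65.6 to 104 FPKM with log2 fold changes between -0.17 and 0.18. None of the 3 other lipoxygenases measured passed the filter, and the highest of them, Alox12e, reached 6.99 FPKM in WT-TAC1 alone (at most 0.193 elsewhere). Of 6 leukotriene synthesis genes tested, 3 were higher in WT-TAC, and 2 were lower and 1 higher in Fat1-TAC. The most abundant, Mgst3, was at 89.3 FPKM in WT-TAC1 and 139 to 206 elsewhere, and was the gene higher in Fat1-TAC (log2 fold change 0.75, limma adjusted p = 0.163). Mgst2, a glutathione transferase that can make leukotriene C, was named after its values were seen, because it had the widest range of the leukotriene synthesis genes. It was at 0.490 and 0.654 FPKM in WT-Sham, 51.6 and 6.56 in WT-TAC, 0.780 and 0.567 in Fat1-Sham, and 0.668 and 1.07 in Fat1-TAC. Its log2 fold change in WT-TAC of 3.67 (SE 0.77, limma adjusted p = 0.130) did not pass. Outside WT-TAC, Mgst2 reached 1 FPKM in Fat1-TAC2 alone, so it, too, passed the filter only with the help of WT-TAC. It therefore had to be high there, and its fold changes are given as a description. The log2 fold change fell to 2.27 when WT-TAC1 was left out and rose to 5.07 when WT-TAC2 was. Of the 4 leukotriene receptors measured, Cysltr1 alone passed the filter, at 0.528 to 1.31 FPKM.

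Among 8 other prostanoid synthases, 0 were past the unadjusted threshold in WT-TAC over WT-Sham and 1 was lower in Fat1-TAC than in WT-TAC. The most abundant, Fam213b, a prostamide and prostaglandin F synthase, was at 126 to 189 FPKM. Of 5 prostanoid receptors tested, 1 was higher in WT-TAC and 2 were lower in Fat1-TAC. The prostaglandin F receptor Ptgfr, the most abundant of these, was at 3.61 and 12.4 FPKM in WT-Sham, 8.64 and 9.18 in WT-TAC, 2.82 and 1.31 in Fat1-Sham, and 1.26 and 1.23 in Fat1-TAC. All 4 WT libraries were above all 4 fat-1 libraries, an order whose share among all genes was not counted. The log2 fold change of Ptgfr in Fat1-TAC over WT-TAC was -2.14 (SE 0.49, limma adjusted p = 0.123). The libraries with the 3 lowest Ptgfr levels were those with the 3 lowest atrial marker sums, a relation whose part in the result was not tested. Of 6 genes for transport and breakdown, 0 passed in WT-TAC and 3 were lower in Fat1-TAC, and the most abundant, the reductase gene Ptgr2, was at 50.3 FPKM in WT-TAC1 and 78.2 to 88.8 elsewhere.

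Of 12 cytochrome P450 genes tested, 2 were higher in WT-TAC and 4 lower in Fat1-TAC at the unadjusted threshold (22.7% and 23.5% of all genes). Cyp2e1, the most abundant, was at 31.2 and 60.3 FPKM in WT-Sham, 112 and 148 in WT-TAC, 39.0 and 14.1 in Fat1-Sham, and 1.93 and 49.2 in Fat1-TAC. It was lowest in Fat1-TAC1, as the adipocyte markers were, and its log2 fold change in Fat1-TAC over WT-TAC was -3.42 (SE 1.18, limma adjusted p = 0.163). That value was -5.47 without Fat1-TAC2 (limma adjusted p = 0.0388) and -1.37 without Fat1-TAC1 (0.470). The microsomal epoxide hydrolase Ephx1, the other abundant hydrolase, ran opposite to Ephx2 in WT-TAC, with 31.9 and 60.9 FPKM in WT-Sham and 75.5 and 81.6 after TAC (log2 fold change 0.82, limma adjusted p = 0.175). Its log2 fold change was 0.36 without WT-Sham1, 1.27 without WT-Sham2 and 0.35 with median-of-ratios scaling. Of the 3 other lipid mediator receptors tested, Hcar2 was past the unadjusted threshold in both comparisons with WT-TAC, and the resolvin and chemerin receptor Cmklr1, the most abundant, was at 14.7 to 23.4 FPKM.

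The genes whose log2(FPKM + 1) over the 8 libraries was most like that of each of the 10 had Pearson's r between 0.934 and 0.997. These are descriptions over the same 8 libraries, and 14 of the 30 genes were highest in WT-TAC1, as 58.1% of all genes tested were. For Alox15 they were the immunoglobulin genes Ighv14-2 (0.997), Ighv1-66 (0.993) and Iglc1 (0.989), whose near-identical segments can share reads. For Ptges they were Rpap3 (0.981), Alox15 (0.979) and Pou2af1 (0.974), so that Alox15 and Ptges were alike. For Ffar4 they were Mycl (0.994), Cgn (0.992) and 2010300C02Rik (0.992). For Ephx2 they were Popdc2 (0.997), Rcan2 (0.996) and Ank1 (0.993), and for Ptgds Gm5514 (0.981), Ndufa12 (0.974) and Mrpl45 (0.970). For Alox5 they were Ank3 (0.964), Prepl (0.963) and Phka1 (0.962), and for Alox12 Sept10 (0.984), Ankrd45 (0.954) and Asap3 (0.947). For Alox5ap they were Acp1 (0.949), Trpv4 (0.947) and Gm37592 (0.934). For Ptgs1 they were Tspan11 (0.995), Mmp23 (0.988) and Ddr2 (0.987), and for Ptgs2 Gm10863 (0.986), Dpm3 (0.986) and Ms4a4c (0.985).

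WT-TAC1 and WT-TAC2 decided much of what passed. Without WT-TAC2, the WT-TAC group was WT-TAC1 alone and assumed to vary like the other groups. Many more of the 10 genes were then called in WT-TAC over WT-Sham, in Fat1-TAC over WT-TAC and in the interaction. The same held for all genes in each of these comparisons, up and down. Without WT-TAC1, the calls of Alox15 and Ffar4 were lost, and few of all genes were called in these comparisons. The log2 fold change of Alox15 in WT-TAC was 2.24 without WT-TAC1 (limma adjusted p = 0.184) and 2.70 without WT-TAC2 (0.00522), so either library alone gave a fold change near that of both. The call was also lost without either WT-Sham library (0.493 and 0.261) or either Fat1-Sham library (0.159 and 0.156), and kept without either Fat1-TAC library. That of Ptges was 1.27 and 1.5 and that of Ffar4 0.93 and 1.17, in the same order. By contrast, Ptgds moved from -0.72 without WT-TAC1 to -1.75 without WT-TAC2, Ephx2 from -0.21 to -1.06 and Ptgs2 from -0.03 to 1.07. In Fat1-TAC over WT-TAC, Ffar4 was at -1.01 without WT-TAC1 (limma adjusted p = 0.160) and -1.24 without WT-TAC2 (0.00499), and its call was lost without any 1 of the other 6 libraries (0.143 to 0.470).

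**Figure D5:**
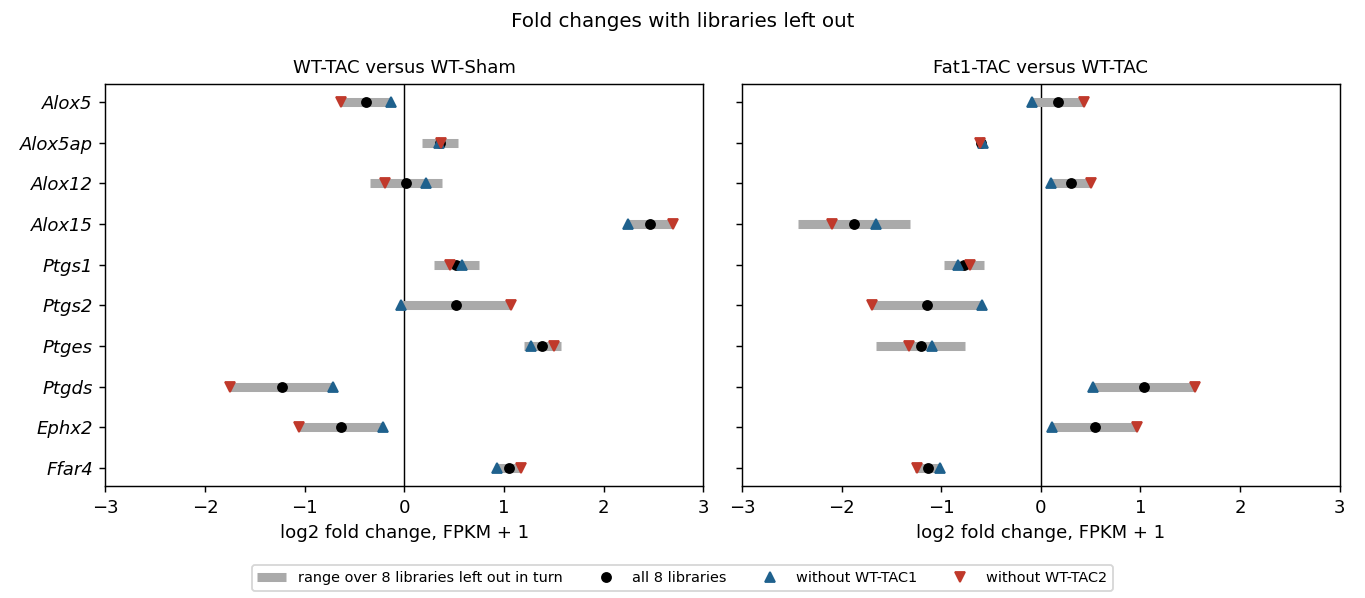
Log2 fold changes of the 10 genes on the log2(FPKM + 1) scale in WT-TAC over WT-Sham (left) and Fat1-TAC over WT-TAC (right), with all libraries (circles), without WT-TAC1 (upward triangles), without WT-TAC2 (downward triangles) and the range over the 8 libraries left out in turn (grey bars). Alox15 stayed between 2.24 and 2.70 in the left panel, whereas Ptgds ran from -1.75 to -0.72.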

How the data were processed

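Total RNA of 8 hearts was sequenced by the authors (NEBNext Ultra kit, Illumina HiSeq). The deposited values are FPKM per gene, made by the authors. The submitters' processing notes name HISAT2 and the builds mm10 and GRCm38, and the counting program is not given in the sources used here. Fragments were recovered because 100.00% of the 25929 genes gave whole fragments (within 0.0002) at a single length.

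Values were fitted as log2(FPKM + 1) in limma (version 3.58.1, R 4.3.3; lmFit, eBayes with a trend) with 4 group means, for the 14442 genes that reached 1 FPKM in 2 libraries or more. Fold changes on this scale understate those of low genes. With 2 against 2 libraries an exact permutation test cannot give a two-sided p below 0.333. On data simulated with a 4-fold change in WT-TAC over WT-Sham, over 13565 genes, 97.0% of changed genes were recovered, and 24 of 215 calls were false. The simulated libraries all had the same spread, without a library standing apart as WT-TAC1 did and without a shift of all genes. The share recovered therefore does not carry over to the real libraries.

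The 10 genes and all lists were chosen with earlier results of these data known. Named pathway genes are those called and the most abundant of each list, and alike genes the 3 with the highest r. The exact intervals of fragment ratios cover counting error only, and the confidence intervals of log2 fold changes rest on the spread between libraries. Positions are from GENCODE M21 (GRCm38). Replicate numbers did not pair the samples (r of their deviations -0.135 to 0.024). Alternatives were other filters, pseudocounts, scalings, limma-voom, fewer groups, a replicate block and leaving out each library.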

Additional observations from a re-analysis of the deposited data

Results flagged for a closer look

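Fam213b, a prostamide and prostaglandin F synthase gene, was noted because the TAC libraries lay below both sham libraries in WT hearts and above both in fat-1 hearts. Of all genes, 7.09% were lower in this way in WT-TAC and 26.8% higher in Fat1-TAC, each comparison taken singly. The level of Fam213b was 155 and 140.0 FPKM in WT-Sham, 126 and 137 in WT-TAC, 157 and 158 in Fat1-Sham, and 176 and 189 in Fat1-TAC. The log2 fold change was -0.16 with TAC in WT hearts, 0.21 in the fat-1 group, and the interaction of 0.38 (SE 0.19, limma adjusted p = 0.495) did not pass. No group held enough libraries for a test of outlying samples.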

How the results depend on the processing

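The number of the 10 genes called in WT-TAC over WT-Sham was 1 and became 2 without a filter on low values (Alox15 and Ffar4), where 1 other pathway gene was also called. It became 0 with a filter at a mean of 5 FPKM, which leaves out Alox15 by construction, and 0 with a pseudocount of 0.1, median-of-ratios scaling, quantile normalization, limma-voom, and the replicate block. In Fat1-TAC over WT-TAC it went from 1 to 0 under each of those settings and with only the 2 groups compared. Hcar2, the 1 other pathway gene called there, was also lost (0) under them, and 2 were called without the filter. Of these settings, the filter at a mean of 5 FPKM leaves out Ffar4 (mean 0.441) and Hcar2 (mean 0.603) by construction. Leaving out each library in turn gave 0 to 7 of the 10 in either comparison and 0 to 6 in the interaction. For other pathway genes it gave 0 to 25, 0 to 29 and 0 to 16. Leaving out WT-TAC2 left 1 library in that group, and many of all genes were then called as well in these comparisons. Nothing particular is therefore read from the upper ends of these ranges. The cause was not tested where none is named. With the numbers of Fat1-Sham crossed, a pairing chosen after seeing the data because its libraries deviated against those of 2 groups (r = -0.113 and -0.135), 0 of the 10 were called in either comparison. In WT-TAC over WT-Sham Alox15 kept its direction in 16 of 16 alternatives (adjusted p 0.00522 to 0.493) and passed in 5. In Fat1-TAC over WT-TAC Ffar4 kept its direction in 16 of 16 (adjusted p 0.00499 to 0.470) and passed in 2. Over all genes, 133 up and 2 down in WT-TAC over WT-Sham became 52 and 0 with the replicate block, and 5 up and 201 down in Fat1-TAC over WT-TAC became 1 and 51, while over the other settings on all libraries the count up in the former ran from 0 to 286 and the count down in the latter from 1 to 342. Depth limits Ffar4, with at most 6 fragments in each library outside WT-TAC.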
